A study of Mus musculus with 12 samples.

Results

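The effect of deleting Met in hepatocytes was examined in mouse liver that had received no hepatocyte growth factor (HGF). The comparison used 6 of the 12 arrays of the series, which were the 3 titled as Met knockout and the 3 titled as control among those marked as without HGF. The titles as deposited set the group and replicate number of each array, and no array was moved between groups. The other 6 arrays carried the same genotypes 2 h after 2 µg of recombinant mouse HGF and were used only where stated.

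All 6 mice descended from a line with loxP sites flanking c-Met on both alleles, and the controls are labelled c-MetloxP/loxP. The knockout mice, labelled c-MetDhepa, additionally carried a Cre transgene. The labels describe Cre lines driven by the albumin promoter (Alb-Cre, active after birth) and by combined albumin and alpha-fetoprotein elements (Alfp-Cre, active from embryonic development). They do not say which line these knockout livers came from. These promoters are known to act in the hepatocyte lineage, and the extent of deletion in each cell type was not measured here. RNA was taken from whole frozen tissue. The source labels call the 6 mice unstimulated, and it is not stated whether they received the NaCl injection that the protocol mentions. Strain, age and sex are not given in the labels. The array numbers in the descriptions run through all controls before all knockouts, so genotype and array order cannot be told apart.

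HGF is secreted in the liver mainly by non-parenchymal cells and binds Met, a receptor tyrosine kinase on hepatocytes. The activated receptor recruits adaptors such as Gab1 and Grb2 and signals through the ERK, PI3K-Akt and STAT3 routes. In liver the pathway is best known for hepatocyte proliferation, survival and motility after injury.

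Values are given as log2(intensity + 1), and all differences are knockout minus control on that scale. Of 16475 probe sets that are not array controls, 6356 reached a log2 value of 4 on at least 3 of the 6 arrays and were tested. The 6 arrays had near-equal overall distributions, with median intensities of 6.75 to 7.03 and between 37.9% and 38.4% of probe sets at or above a log2 value of 4. The tissue label held against its markers, since 27 of 28 hepatocyte genes on the array were tested and Alb lay between 14.43 and 14.54 on every array. The median difference of the 27 was -0.048, beside -0.031 over all tested probe sets. As whole tissue was used, fewer cells of a type and less RNA per cell cannot be told apart.

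One array stood apart. Over the tested probe sets, the controls correlated with each other at 0.990 to 0.992 and knockout 1 with knockout 3 at 0.984. Knockout 2 correlated with those other knockouts at 0.934 to 0.946 and with the controls at 0.946 to 0.957. By contrast, the array labelled knockout 2 without HGF correlated at 0.983 to 0.988 with the control livers after HGF and at 0.991 with knockout 3 after HGF. The array labelled knockout 2 after HGF correlated at 0.934 with it, and at 0.985 to 0.988 with knockout 1 and 3 without HGF. These correlations are across genes, which are not independent replicates, and are given as a description. Whether the titles of these knockout 2 arrays, without and after HGF, were exchanged was not tested, and the meaning of every knockout 2 value and of the values after HGF rests on those titles. Labels were kept as deposited, and the differences of genes named below are given with knockout 2 and without it where it bears on them. That array was chosen for leaving out because it stood apart in these same data.

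The targeted gene did not separate the groups. Met, the receptor, had values of 6.62, 6.84 and 6.77 in controls 1 to 3 and of 7.06, 6.68 and 7.18 in knockouts 1 to 3. Knockout 2 lay inside the control range, and the other knockouts lay above it. The difference was 0.23 (SE 0.16), and limma gave an adjusted p of 0.648; without knockout 2 it was 0.38 (adjusted p = 0.114). Where the probes lie relative to the deleted exon was not analysed here, and a transcript lacking that exon can still be measured, so this value does not check the genotype labels.

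Of the HGF and Met pathway list, Met included, 15 of 29 members on the array were tested. Over 6 arrays 0 were called (limma, adjusted p under 0.05), and without knockout 2 a single member, Hgfac, fell, beside 5.87% of all tested probe sets called in that fit. Hgfac is the protease that cleaves HGF to its active form. Its values were 10.26, 10.32 and 10.18 in controls and 9.68, 9.49 and 9.31 in knockouts, so all knockouts lay below all controls. The difference was -0.76 (SE 0.13; limma adjusted p = 0.131) and -0.76 (adjusted p = 0.0347) without knockout 2. Mst1, the related ligand of the receptor Ron, had values of 9.92, 10.02 and 9.90 in controls and 9.71, 9.67 and 9.17 in knockouts (adjusted p = 0.395). Hgf itself was below the filter, at 3.54, 3.55 and 3.47 against 3.78, 3.39 and 4.62. The adaptor Gab1 was at 4.15, 4.17 and 4.29 in controls and at 5.06, 3.81 and 4.59 in knockouts, which overlap. The median difference of the tested members was -0.0019.

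Over all 6 arrays limma called 9 probe sets at an adjusted p under 0.05, which is 0.142% of those tested. Of these, 6 were higher in the knockout livers (0.0944% of those tested) and 3 were lower (0.0472%). The genes that rose were Rgs16, Rad51b, Nrg4, Meg3, Slc1a2 and S100a6, and those that fell were Sowahb, Cda and Nnt. Each kept its direction in every setting in which it was tested. As the groups of each did not overlap, leaving out an array could not turn it, so this is no further support. At an unadjusted p under 0.05 there were 758 probe sets (11.9%).

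Rgs16, a regulator that shortens G protein signalling, was at 2.95, 3.14 and 3.02 in controls and at 7.36, 6.21 and 7.61 in knockouts. The 3 knockouts lay far above the controls, with knockout 2 the lowest of them. The difference was 4.03 (SE 0.36; limma adjusted p = 0.0305). Rad51b, a gene of homologous recombination, was at 2.82, 3.09 and 3.39 in controls and at 6.33, 6.21 and 7.10 in knockouts. Its groups were equally distinct, with a difference of 3.45 (SE 0.27; adjusted p = 0.0200). Nrg4, a secreted ligand of the receptor ErbB4, was at 2.80, 2.97 and 2.85 in controls and at 4.80, 5.51 and 5.90 in knockouts. It rose by 2.53 (SE 0.28; adjusted p = 0.0469). The control values of Rgs16, Rad51b and Nrg4 were all below the log2 floor of 4, as were those of Meg3 and S100a6, where the scale understates a fold change. These 5 genes passed the filter only through the knockout arrays, in which they were high, and with no filter 0 rises were called.

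Meg3, a maternally expressed long non-coding RNA, was at 3.26, 2.95 and 2.99 in controls and at 4.72, 4.53 and 5.12 in knockouts, a rise of 1.72 (SE 0.18; limma adjusted p = 0.0469). Slc1a2, a glutamate transporter of hepatocytes around the central vein, was at 6.15, 6.09 and 6.51 in controls and at 7.68, 7.52 and 7.84 in knockouts, a rise of 1.43 (SE 0.16; adjusted p = 0.0469). The calcium-binding protein gene S100a6 rose by 1.22 (SE 0.12), with 3.37 to 3.71 in controls and 4.71 to 4.79 in knockouts. In these 3 genes the knockout arrays lay within 0.6 of one another.

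Among the genes that fell, Sowahb was at 6.17, 6.37 and 6.52 in controls and at 4.29, 4.24 and 4.48 in knockouts (difference -2.01, SE 0.13; limma adjusted p = 0.0178). Cda, cytidine deaminase of pyrimidine salvage, was at 5.70, 5.94 and 5.70 in controls and at 3.91, 3.90 and 4.36 in knockouts (-1.72, SE 0.16; adjusted p = 0.0362). Nnt, the transhydrogenase of the inner mitochondrial membrane that makes NADPH, was at 9.53, 9.46 and 9.58 in controls and at 8.21, 8.10 and 8.07 in knockouts (-1.39, SE 0.10; adjusted p = 0.0178). In each of these genes the groups did not overlap and knockout 2 lay with the other knockouts.

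**Figure D1:**
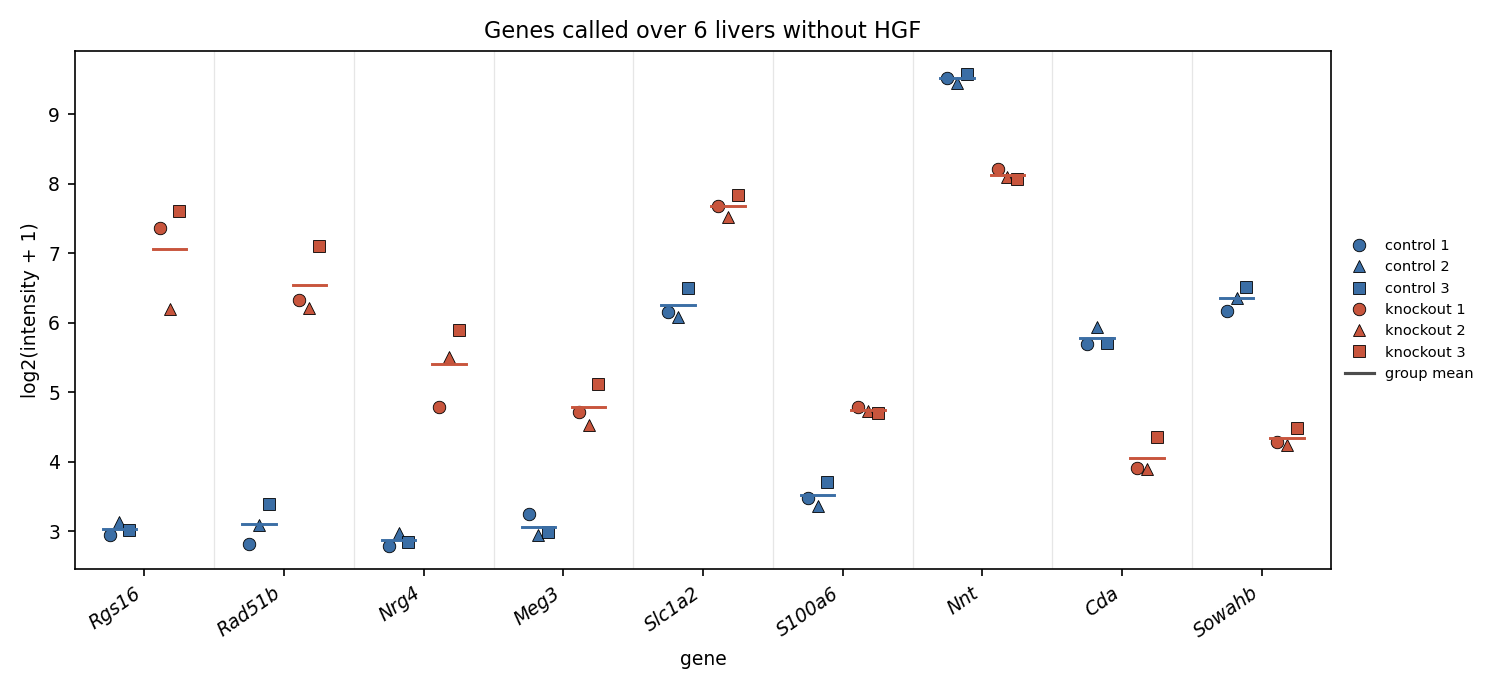
Values of the 9 genes called over 6 arrays, as log2(intensity + 1) on the y axis, with 1 symbol per liver (blue for control, red for knockout, marker shape for the replicate) and a bar for each group mean. In every gene the 3 knockout livers lie apart from the 3 controls, and the Rgs16 values run from 2.95 to 3.14 in controls and from 6.21 to 7.61 in knockouts.

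The 6 livers after HGF gave a second set of values for these 9 genes. Rad51b was at 3.24, 2.67 and 3.02 in controls after HGF and at 6.52, 6.46 and 6.65 in knockouts after HGF, close to its levels without HGF. Slc1a2 was at 6.60, 5.38 and 5.53 against 7.60, 6.72 and 7.26, and Meg3 at 3.17, 2.63 and 3.37 against 5.49, 3.55 and 3.98. These 3 of 9 (33.3%) again had non-overlapping groups in the same direction, beside 7.80% of all tested probe sets. The other 6 overlapped. Sowahb, for example, was at 4.49, 4.55 and 5.43 in controls and at 6.59, 5.34 and 4.42 in knockouts after HGF. Rad51b and Meg3 had passed the filter only through the knockout arrays without HGF, in which they were high. The values after HGF also rest on array titles whose exchange was not tested. The share of 33.3% is therefore given as a description and no support for a repeat of the calls.

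The count of calls depended on single arrays. Without knockout 2 limma called 373 probe sets (5.87%), including all 9, with 190 higher (2.99%) and 183 lower (2.88%) in knockout 1 and 3. Of the 373, 150 differed by at least 2-fold. Over 6 arrays it called 0 without any 1 of the controls, 1 without knockout 1 and 6 without knockout 3. The 373 in turn became 98, 71 and 135 without controls 1, 2 and 3, 465 without knockout 1 and 96 without knockout 3, where a lone knockout is assumed to vary like the controls. Genes named below as having risen or fallen passed the fit without knockout 2, and all other values are descriptive.

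Knockout 2 shared the direction of knockout 1 and 3 for 219 of the 373 and lay on the other side of the control mean for 154. In 185 all 3 knockouts lay beyond the control range. Over all tested probe sets the 3 knockouts lay above the 3 controls in 409 (6.43%) and below them in 793 (12.5%), together 1202 (18.9%). Knockout 1 and 3 alone lay above the controls in 1385 (21.8%) and below them in 1396 (22.0%). The knockout group was the more variable, with a median SD of 0.23 against 0.11 in controls.

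**Figure D2:**
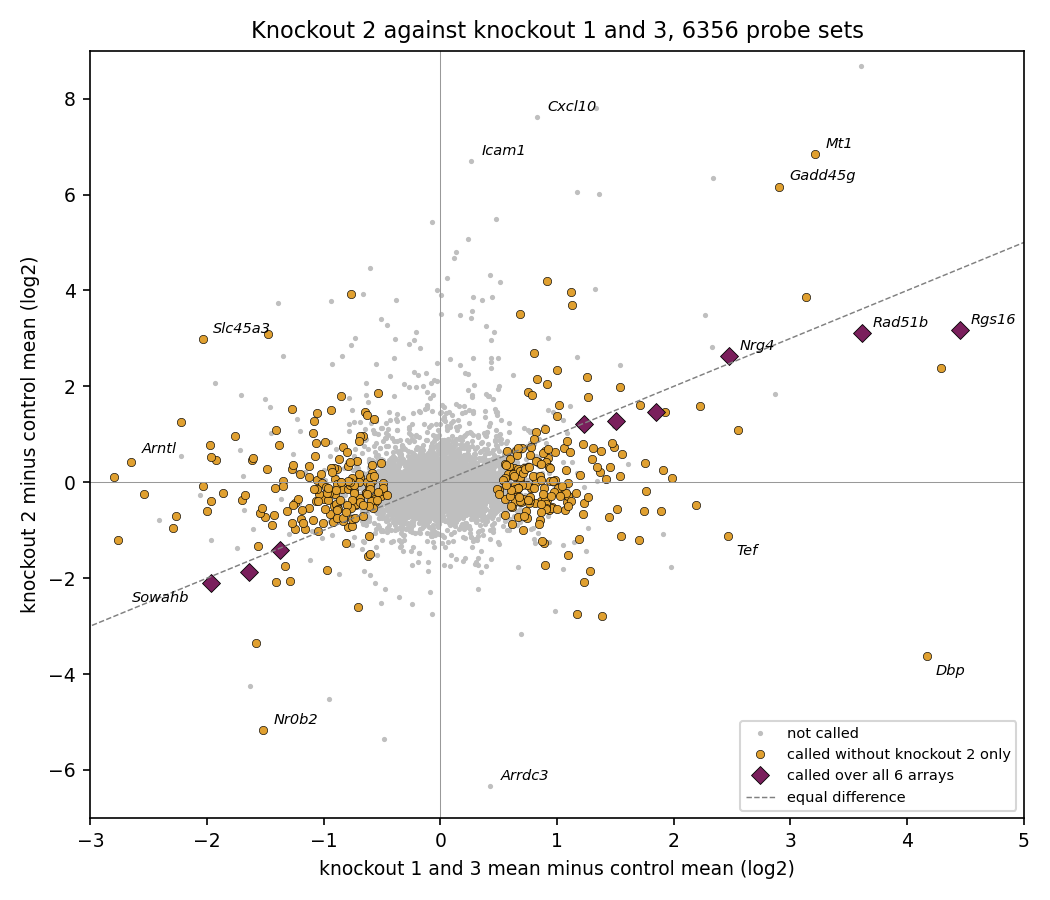
Difference of knockout 2 from the control mean (y axis) against that of the mean of knockout 1 and 3 (x axis), both in log2 units, for 6356 tested probe sets. Of the 9 genes called over 6 arrays (diamonds), Rgs16 lies 1.28 below the dashed line of equal difference and the others lie closer to it. A call over 6 arrays favours genes in which the knockouts are alike, so this closeness is no separate result. Of the 373 called without knockout 2 (orange, and the diamonds) 154 lie on opposite sides of 0 on the axes.

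Genes of the circadian clock separated knockout 1 and 3 from the controls. Clock outputs that are driven directly by the core loop, Dbp, Tef and Hlf, rose, and the activators Arntl and Clock fell. Of 9 tested core clock genes, 3 rose and 2 fell, and of 13 tested clock output genes, 7 rose and 2 fell, beside 2.99% of all tested probe sets higher and 2.88% lower. Rgs16, 1 of the 7, passed the filter only through the knockout arrays. The median difference of the outputs was 0.84 without knockout 2, beside 0.0016 over all tested probe sets. With knockout 2 in the fit, Rgs16 was the only member of either list that was called.

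Dbp, a PAR bZIP transcription factor with a strong daily rhythm in liver, was at 6.22, 5.91 and 7.50 in controls and at 10.72, 2.92 and 10.72 in knockouts. Knockout 1 and 3 were thus the highest of the 6 livers and knockout 2 the lowest. The difference was 4.17 (SE 0.45; limma adjusted p = 0.0113) without knockout 2 and 1.58 (SE 2.10; adjusted p = 0.841) with it. Its relative Tef was at 4.86, 4.80 and 5.58 in controls and at 7.47, 3.95 and 7.62 in knockouts, and rose by 2.46 (SE 0.25; adjusted p = 0.0112). Hlf, the third of the family, was at 4.47, 4.48 and 4.55 against 5.35, 3.62 and 5.33, and rose by 0.84 (SE 0.10; adjusted p = 0.0126). In each of these PAR bZIP genes knockout 2 was the lowest liver and the other knockouts were the highest. With knockout 2 the differences were 1.27 for Tef (adjusted p = 0.682) and 0.27 for Hlf (adjusted p = 0.875).

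Arntl encodes BMAL1, which pairs with CLOCK to activate E-box genes. It was at 5.53, 5.62 and 4.84 in controls and at 2.77, 5.76 and 2.59 in knockouts, and fell by 2.65 without knockout 2 (SE 0.25; limma adjusted p = 0.00906). Clock was at 7.03, 6.98 and 7.26 against 5.75, 7.36 and 5.46 (difference -1.48, adjusted p = 0.0100). Nfil3, a repressor of D-box genes, was at 7.33, 6.94 and 6.94 against 5.28, 8.04 and 5.33 (difference -1.76, adjusted p = 0.00734). Knockout 2 was the highest of the 6 livers for these genes and knockout 1 and 3 the lowest. With it the differences were -1.62, -0.90 and -0.86, and the adjusted p was 0.523, 0.537 and 0.716.

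The repressor genes Nr1d2, Cry2 and Bhlhe40 rose without knockout 2. Nr1d2, which encodes REV-ERB beta, was at 7.80, 7.57 and 7.93 in controls and at 8.91, 7.46 and 9.15 in knockouts (difference 1.27, limma adjusted p = 0.0128). Cry2 was at 5.93, 5.78 and 6.03 against 6.81, 4.64 and 6.80 (0.89, adjusted p = 0.0168). Bhlhe40 differed in that all 3 knockouts, at 9.47, 8.20 and 8.87, lay above the controls at 7.59, 7.23 and 8.01 (1.56, adjusted p = 0.0305). With knockout 2 the adjusted p of Nr1d2, Cry2 and Bhlhe40 was 0.579, 0.942 and 0.273. Cry1 and Nr1d1, repressors of the same list, were called in neither fit. Cry1 was at 5.51, 5.24 and 5.37 in controls and at 4.12, 5.33 and 5.05 in knockouts. Knockout 1 and 3 were thus its lowest livers (-0.79 without knockout 2, adjusted p = 0.142). Nr1d1 was at 6.44, 6.49 and 6.66 against 7.27, 4.94 and 6.20 (0.21, adjusted p = 0.709).

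Other clock genes were too low to be tested, since only knockout 1 and 3 reached the floor. The deubiquitinase gene Usp2 was at 2.73, 2.66 and 3.0 in controls and at 8.31, 2.64 and 8.21 in knockouts. Ciart, a repressor within the clock, was at 3.18, 3.18 and 3.53 against 6.98, 2.51 and 6.55. Wee1, a cell cycle kinase under clock control, was at 3.30, 3.21 and 3.43 against 5.93, 3.13 and 6.46. In each, knockout 1 and 3 lay far above the controls and knockout 2 below them. Per1, Per2 and Per3, period genes of the core loop, stayed below 4 on every array.

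**Figure D3:**
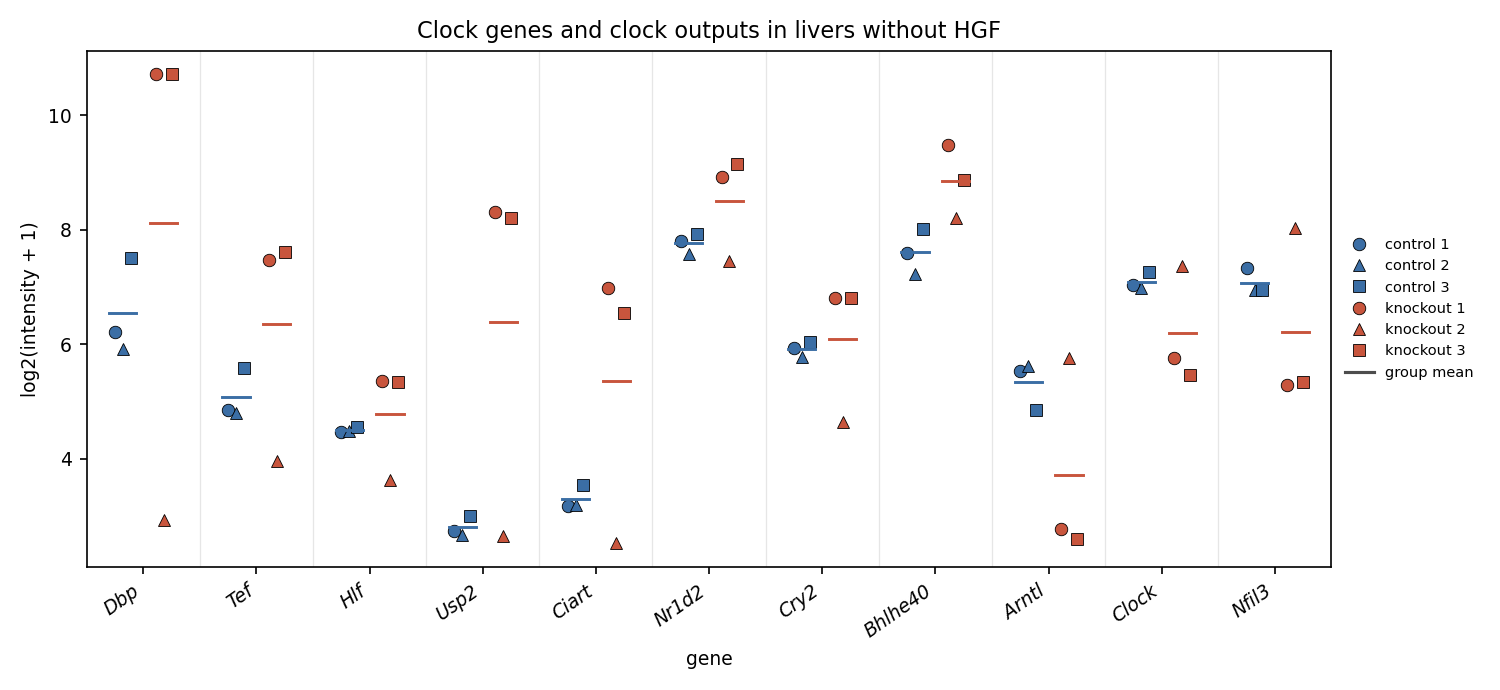
Clock genes and clock outputs as log2(intensity + 1) on the y axis, with 1 symbol per liver (blue control, red knockout, marker shape for the replicate) and a bar for each group mean. Knockout 1 and 3 lie together, above the controls from Dbp to Bhlhe40 and below them from Arntl to Nfil3, while knockout 2 is at 2.92 for Dbp and at 5.76 for Arntl. Cry1 and Nr1d1 are not shown.

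Promoter windows of 2 clock outputs are shown because they hold E-boxes, the element that BMAL1 and CLOCK bind, in genes that were high in knockout 1 and 3. Windows cover the 250 bases before the gene's start, from RefSeq on GRCm38.p6, written 5′ to 3′ on the gene's strand with the E-box CACGTG in capitals. The Tef window is chr15:81802423-81802672 on the plus strand, 1 of 2 windows of the gene, and the Ciart window is chr3:95882229-95882478 on the minus strand, with 3 matches.
Tef: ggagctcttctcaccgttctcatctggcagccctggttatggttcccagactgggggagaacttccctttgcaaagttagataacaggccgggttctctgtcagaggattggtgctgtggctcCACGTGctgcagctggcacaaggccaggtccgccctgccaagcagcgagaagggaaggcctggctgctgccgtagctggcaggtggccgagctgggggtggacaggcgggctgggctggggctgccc
Ciart: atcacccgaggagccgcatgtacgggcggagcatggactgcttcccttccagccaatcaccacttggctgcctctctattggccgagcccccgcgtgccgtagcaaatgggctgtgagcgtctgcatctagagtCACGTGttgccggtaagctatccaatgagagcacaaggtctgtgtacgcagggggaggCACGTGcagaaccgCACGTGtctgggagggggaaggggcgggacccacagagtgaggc

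The E-box, a palindrome and thus the same on both strands, was found in 1978 of 32851 such windows (6.02%). It was present for 3 of 12 core clock genes with a window and for 3 of 16 output genes, beside 6.86% of all genes with a window. Besides Tef and Ciart these were Bhlhe41, Cry1, Per1 and Lonrf3, and Dbp was not among them. Cry1 was lowest in knockout 1 and 3, Per1 stayed below 4 on every array, and Bhlhe41 and Lonrf3 were not among the tested genes. The D-box TTATGNAA, bound by DBP, TEF and HLF, was sought on both strands and found in 3.07% of all windows. The D-box was present for 2 of 12 core clock genes and 1 of 16 output genes, beside 3.63% of all genes with a window. The motifs were chosen after the values had been seen, and a match describes the letters only.

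Chaperones and other genes of the endoplasmic reticulum (ER) stress response were low in knockout 1 and 3. Of 27 tested heat shock and ER stress genes, 7 fell without knockout 2 (Hsph1, Bag3, Hspa5, Pdia6, Creld2, Sdf2l1 and Hyou1) and 2 rose (Asns and Trib3), beside 2.88% and 2.99% of all tested probe sets. Knockout 1 and 3 lay below all controls in 15 of the 27, beside 22.0% of all tested probe sets. The median difference was -0.40 without knockout 2 and -0.20 with it, where 0 members were called. In 14 of the 27 knockout 2 was the highest of the 6 livers, beside 16.7% of all tested probe sets.

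Hspa5 encodes BiP, the main chaperone of the ER lumen. It was at 11.96, 11.97 and 11.93 in controls and at 11.23, 12.30 and 11.10 in knockouts (difference -0.79 without knockout 2, limma adjusted p = 0.0156). Creld2, a secreted ER stress product, was at 8.30, 8.35 and 8.35 against 7.04, 9.11 and 6.85 (-1.39, adjusted p = 0.00656). Pdia6, a protein disulfide isomerase, was at 9.74, 10.10 and 9.92 against 9.20, 9.92 and 9.09 (-0.78, adjusted p = 0.0305). In Hspa5 and Creld2 knockout 2 was above every control, and in Pdia6 it lay within the control range. With knockout 2 the differences were -0.41, -0.67 and -0.52 and the adjusted p was 0.678, 0.722 and 0.470.

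The cytosolic chaperone gene Hsph1 was at 7.19, 7.04 and 7.24 in controls and at 5.73, 8.24 and 5.75 in knockouts (-1.41 without knockout 2, limma adjusted p = 0.00656; -0.58 with it, adjusted p = 0.806). The members that rose were targets of the amino acid response. Asns, asparagine synthetase, was at 5.40, 4.56 and 4.15 in controls and at 7.49, 6.29 and 6.38 in knockouts, with all knockouts above all controls (2.23, adjusted p = 0.0448; 2.01 with knockout 2, adjusted p = 0.197). Trib3, a pseudokinase that binds Akt, was at 3.76, 3.48 and 4.04 against 5.85, 3.28 and 6.04 (2.19, adjusted p = 0.00734; 1.30 with knockout 2, adjusted p = 0.553). Trib3 had controls below the floor, passed the filter only with knockout 1 and 3, and is no support for the list.

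Windows of 3 of the genes that fell are shown because each holds the ER stress response element, given in capitals. The element was taken as CCAAT and CCACG separated by 9 bases of any kind. They are the 250 bases before the start in RefSeq on GRCm38.p6. Hspa5 is at chr2:34771840-34772089, Creld2 at chr15:88819396-88819645 and Pdia6 at chr12:17266339-17266588, all on the plus strand, and in Creld2 the match is the reverse complement.
Hspa5: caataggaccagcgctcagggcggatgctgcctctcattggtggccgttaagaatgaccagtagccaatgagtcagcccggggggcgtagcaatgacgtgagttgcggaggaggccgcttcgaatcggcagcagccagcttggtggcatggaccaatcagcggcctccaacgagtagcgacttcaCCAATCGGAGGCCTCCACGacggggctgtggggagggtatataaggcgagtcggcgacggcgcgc
Creld2: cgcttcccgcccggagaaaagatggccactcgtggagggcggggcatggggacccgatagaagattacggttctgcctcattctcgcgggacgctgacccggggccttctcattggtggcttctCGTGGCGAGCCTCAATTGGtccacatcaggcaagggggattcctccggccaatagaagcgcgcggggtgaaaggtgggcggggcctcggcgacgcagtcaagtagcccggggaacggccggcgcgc
Pdia6: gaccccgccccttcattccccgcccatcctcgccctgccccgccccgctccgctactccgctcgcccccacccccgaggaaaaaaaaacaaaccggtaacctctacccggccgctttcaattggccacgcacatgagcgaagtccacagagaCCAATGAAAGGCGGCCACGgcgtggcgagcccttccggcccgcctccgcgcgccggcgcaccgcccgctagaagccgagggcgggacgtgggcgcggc

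The element was sought on both strands and occurred in 37 of 32851 windows (0.113%). It was present for 7 of 29 listed heat shock and ER stress genes with a window (24.1%), beside 0.13% of all genes with a window. The other 4 were Calr, Derl3, Hsp90b1 and Canx. Calr was at 9.82, 10.01 and 9.86 in controls and at 9.50, 10.09 and 9.04 in knockouts (difference -0.62 without knockout 2, limma adjusted p = 0.0814). Hsp90b1 and Canx had differences of -0.40 and -0.35 without knockout 2 and were not called, and Derl3 was below the filter. This element was also chosen with the values known.

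The largest rises without knockout 2 were in Rgs16 (4.45), Mfsd2a (4.29) and Dbp, of which Rgs16 and Dbp are clock outputs. Mfsd2a, a transporter of lysophospholipids, was at 4.34, 2.85 and 5.46 in controls and at 8.54, 6.60 and 8.47 in knockouts (SE 0.69; limma adjusted p = 0.0252). All 3 knockouts were higher than every control, and with knockout 2 the difference was 3.66 (adjusted p = 0.197). Plk3, a stress-responsive kinase, was at 4.52, 3.14 and 3.79 against 7.56, 7.67 and 6.33 (3.13, adjusted p = 0.0242; 3.37 with knockout 2, adjusted p = 0.0908). Coq10b, a protein that binds coenzyme Q, was at 5.86, 5.56 and 6.33 against 8.21, 7.0 and 8.72 (2.55, adjusted p = 0.0112; 2.06 with knockout 2, adjusted p = 0.199). Plk3 and Coq10b also had no overlap between groups. Mfsd2a and Plk3 had at least 1 control below the floor and passed the filter only with the knockout arrays.

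The largest falls without knockout 2 were in Tubb2a, Pdk4 and Arntl. Tubb2a, a beta-tubulin, was at 10.55, 10.59 and 10.44 in controls and at 8.02, 10.64 and 7.44 in knockouts (-2.80, SE 0.18; limma adjusted p = 0.00656), so knockout 2 was the highest liver and the other knockouts the lowest. With it the difference was -1.83 (adjusted p = 0.429). Pdk4, the kinase that restrains pyruvate dehydrogenase, was at 7.34, 7.39 and 5.95 against 3.93, 5.69 and 4.32 (-2.77, adjusted p = 0.0259; -2.25 with knockout 2, adjusted p = 0.246). All knockouts lay below the controls for Pdk4.

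Other genes among the 12 largest falls were described by their values, with no list behind them. The manganese exporter Slc30a10 was at 7.35, 7.69 and 7.47 in controls and at 5.49, 7.26 and 4.43 in knockouts (-2.54, limma adjusted p = 0.0141). Slc3a1, the heavy subunit of the cystine and dibasic amino acid carrier, was at 7.14, 6.85 and 7.0 against 5.17, 6.03 and 4.24 (-2.29, adjusted p = 0.0136). For Slc30a10 and Slc3a1 all knockouts lay below all controls. The magnesium transporter Slc41a2 and the solute carrier Slc45a3 fell by 2.22 and 2.04, yet in both knockout 2 was above every control, at 9.32 and 7.94. With knockout 2 none of these 4 was called, with differences of -1.78, -1.85, -1.06 and -0.36. Ddc, aromatic amino acid decarboxylase, was at 10.95, 10.71 and 10.90 against 9.05, 10.47 and 8.72 (-1.97, adjusted p = 0.00656; -1.44 with knockout 2, adjusted p = 0.306).

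Of 14 tested genes of the gluconeogenesis and insulin list, 4 rose (Slc2a2, Gys2, Trib3 and Slc37a4) and 1 fell (G6pc) without knockout 2, beside 2.99% and 2.88% of all tested probe sets, and 0 were called with it. Trib3 passed the filter only with knockout 1 and 3 and is no support for this list either. G6pc, the glucose-6-phosphatase catalytic subunit that releases glucose, was at 10.73, 10.06 and 10.42 in controls and at 9.16, 7.04 and 8.49 in knockouts (-1.58, limma adjusted p = 0.0270; -2.17 with knockout 2, adjusted p = 0.226). All 3 knockouts were below the controls. Its partner transporter Slc37a4 was at 9.36, 9.32 and 9.31 against 10.05, 9.57 and 9.98 and moved the other way (0.68, adjusted p = 0.0192; 0.54 with knockout 2, adjusted p = 0.263). Gys2, liver glycogen synthase, was at 8.98, 8.97 and 8.96 against 10.11, 8.57 and 10.06 (1.12, adjusted p = 0.00734; 0.61 with knockout 2, adjusted p = 0.635). Ppp1r3b, which targets a phosphatase to glycogen and is no member of that list, was at 8.97, 9.27 and 9.16 against 7.12, 9.91 and 7.20 (-1.97, adjusted p = 0.00656; -1.06 with knockout 2, adjusted p = 0.653). In Gys2 and Ppp1r3b knockout 2 lay on the far side of the controls from the other knockouts. Pck1, a list member called in neither fit, was at 11.54, 11.08 and 11.51 against 12.02, 12.03 and 11.88. All 3 knockouts were above the controls (0.58, adjusted p = 0.101; 0.60 with knockout 2, adjusted p = 0.244).

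Of 21 tested bile acid genes, 2 rose and 1 fell without knockout 2, beside 2.99% and 2.88% of all tested probe sets. Cyp7a1, the rate-limiting enzyme of bile acid synthesis, was at 8.75, 8.89 and 8.22 in controls and at 9.69, 5.87 and 9.88 in knockouts (1.17, limma adjusted p = 0.0349), and its difference was -0.14 (adjusted p = 0.976) with knockout 2, which was the lowest liver. Nr0b2, which encodes SHP, a repressor of Cyp7a1, was at 8.92, 8.69 and 9.02 against 7.14, 3.71 and 7.57, with all knockouts below the controls (-1.52, adjusted p = 0.0126; -2.74 with knockout 2, adjusted p = 0.366). Nr1h4, the bile acid receptor FXR, rose by 0.50 (adjusted p = 0.0448; 0.25 with knockout 2, adjusted p = 0.730). The median of the list was 0.0091 without knockout 2.

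Among 16 tested lipogenesis genes, Thrsp rose and Acly and Insig2 fell without knockout 2, beside 2.99% and 2.88% of all tested probe sets. Insig2, which retains the sterol sensor in the ER, was at 10.70, 10.64 and 10.51 in controls and at 9.36, 10.88 and 9.32 in knockouts (-1.27, limma adjusted p = 0.00734; -0.76 with knockout 2, adjusted p = 0.550). Acly, ATP citrate lyase, was at 10.25, 10.22 and 9.99 against 9.57, 9.77 and 9.37, with no overlap (-0.69, adjusted p = 0.0381; -0.59 with knockout 2, adjusted p = 0.238). None of 15 tested sterol synthesis genes was called, and their median was -0.11. Of 22 tested genes of fat oxidation, Angptl4 rose and Pdk4 fell without knockout 2, beside the same shares of all tested probe sets.

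Of the pericentral hepatocyte genes, expressed around the central vein, 3 of 17 tested rose without knockout 2 (Slc1a2, Oat and Rnf43), beside 2.99% of all tested probe sets, and 0 fell. Knockout 1 and 3 lay above all controls in 10 of the 17, beside 21.8% of all tested probe sets, and all 3 knockouts did so in 7, beside 6.43%. Oat, ornithine aminotransferase, was at 12.24, 12.04 and 12.09 in controls and at 12.91, 12.74 and 13.09 in knockouts (0.88, limma adjusted p = 0.0183; 0.79 with knockout 2, adjusted p = 0.130). Glul, glutamine synthetase of the innermost pericentral layer, was at 10.96, 10.72 and 10.83 against 11.31, 11.27 and 11.51, without overlap (0.57, adjusted p = 0.0554; 0.52 with knockout 2, adjusted p = 0.204). Rnf43, a Wnt feedback gene, was at 3.86, 4.02 and 3.96 against 5.07, 2.11 and 5.40 (1.29, adjusted p = 0.0113; 0.24 with knockout 2, adjusted p = 0.942). Rnf43 had controls below the floor, passed the filter only with knockout 1 and 3, and is no support for the list. The list's median was 0.22 without knockout 2 and 0.16 with it.

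Periportal genes, expressed near the portal vein, had 2 of 15 tested lower and 0 higher without knockout 2, beside 2.88% and 2.99% of all tested probe sets. Cdh1, E-cadherin, was at 8.44, 8.56 and 8.47 in controls and at 7.11, 7.84 and 6.77 in knockouts (-1.55, limma adjusted p = 0.00734; -1.25 with knockout 2, adjusted p = 0.197). Ctsc, a lysosomal peptidase also made by immune cells, was at 10.76, 10.47 and 10.65 against 9.39, 10.38 and 9.78 (-1.04, adjusted p = 0.0220; -0.78 with knockout 2, adjusted p = 0.330). The groups did not overlap for either gene. All 3 knockouts lay below all controls in 5 of the 15, beside 12.5% of all tested probe sets. They lay above all controls in 1, Pck1, beside 6.43%. The list's median was -0.094 without knockout 2 and -0.054 with it, and the difference between the zones was not tested.

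Genes of the interferon response were low in knockout 1 and 3. Of 20 tested interferon targets, 5 fell without knockout 2 (Irf9, Stat2, Igtp, Irgm1 and Rsad2), beside 2.88% of all tested probe sets. In 12 both of these livers lay below all controls, beside 22.0%. The median was -0.68 without knockout 2 and -0.32 with it, where 0 were called. Rsad2, an antiviral enzyme, was at 5.89, 6.64 and 5.57 in controls and at 4.15, 5.80 and 4.19 in knockouts (-1.86, limma adjusted p = 0.0260; -1.32 with knockout 2, adjusted p = 0.391). Irgm1, an interferon-induced GTPase, was at 8.24, 8.44 and 8.17 against 7.36, 9.10 and 7.09 (-1.06, adjusted p = 0.0170; -0.44 with knockout 2, adjusted p = 0.812). Irf7, a transcription factor that amplifies interferon signals, was below the controls in all 3 knockouts, at 3.58, 3.92 and 3.94 against 4.70, 4.96 and 4.35 (adjusted p = 0.203).

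Genes of Kupffer cells and macrophages had a median of -0.37 over 6 arrays and -0.30 without knockout 2. The medians by array were 0.27, 0.03 and -0.33 in controls and -0.57, -0.33 and -0.04 in knockouts 1 to 3, so knockout 3 lay within the control range. Of 25 tested, 0 were called in either fit. All 3 knockouts lay below all controls in 3 of the 25, beside 12.5% of all tested probe sets, and above them in 0, beside 6.43%. Csf1r, the macrophage growth factor receptor, was at 7.96, 7.82 and 7.46 in controls and at 6.98, 7.19 and 7.28 in knockouts (difference -0.59, limma adjusted p = 0.259). Clec4f, specific to Kupffer cells in mouse, was at 9.28, 9.02 and 8.80 against 8.44, 8.19 and 8.96. The groups were apart for Csf1r and overlapped for Clec4f. Summed intensities of the listed genes were 7294 to 10390 in controls and 6174, 7506 and 8603 in knockouts 1 to 3, and their part in the interferon values was not tested.

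Genes of matrix and stellate cells lay higher in the knockout livers, with a median of 0.42 over 15 tested and 0.44 without knockout 2. In 5 of the 15, Mgp among them, all 3 knockouts lay above all controls, beside 6.43% of all tested probe sets, and in 0 below. Mgp also enters both medians. Mgp, matrix Gla protein, was at 2.27, 2.95 and 2.89 in controls and at 4.30, 4.32 and 4.52 in knockouts (1.68, limma adjusted p = 0.0694; 1.71 without knockout 2, adjusted p = 0.0175). Col3a1, a fibrillar collagen, was at 7.97, 8.36 and 7.80 against 9.11, 9.10 and 8.51 (0.86, adjusted p = 0.246), and Vim, vimentin, at 6.37, 6.67 and 6.02 against 7.26, 7.44 and 7.06 (0.89, adjusted p = 0.199). The knockouts were all higher for each, and of the 3 only Mgp passed the test, without knockout 2. Mgp had all controls below the floor and passed the filter only through the knockout arrays, so it is a value of its own and no support for the list.

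Inflammatory genes set knockout 2 apart from all 5 other livers. It was the highest liver for all 13 tested NF-kappaB targets and chemokines, all 5 tested neutrophil genes, 24 of 30 acute phase genes and 11 of 14 immediate early genes, beside 16.7% of all tested probe sets. Compared with the mean of knockout 1 and 3 it was at least 2-fold away for 597 probe sets, 320 higher and 277 lower. Over 6 arrays 0 members of these lists were called. In 14 of the 30 acute phase genes knockout 1 and 3 lay below all controls, beside 22.0% of all tested probe sets. They lay above all controls in 4, beside 21.8%. The acute phase median was -0.29 without knockout 2. In that fit Apcs fell (-0.84, and -0.31 with knockout 2) and Socs3 rose, beside 2.88% and 2.99% of all tested probe sets.

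Cxcl10, a chemokine that attracts T cells, was at 5.02, 5.48 and 4.19 in controls and at 7.34, 12.51 and 4.11 in knockouts. Icam1, an adhesion molecule for leukocytes, was at 4.91, 4.58 and 3.95 against 6.05, 11.18 and 3.44. The acute phase gene Saa2 was at 10.81, 9.86 and 6.42 against 8.48, 12.76 and 6.80. Knockout 2 was far above the rest for Cxcl10 and Icam1, whereas the controls themselves spread widely for Saa2. All were named for their distance from the other knockouts on knockout 2, so that distance is no separate result. The differences over 6 arrays were 3.09 (SE 1.96), 2.41 (SE 1.82) and 0.32 (SE 1.76), with limma adjusted p values of 0.613, 0.677 and 0.966, and without knockout 2 they were 0.83, 0.26 and -1.39.

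Neutrophil genes followed the same order. S100a9, a calprotectin subunit abundant in neutrophils, was at 4.70, 4.25 and 3.33 in controls and at 4.29, 9.51 and 3.74 in knockouts. Summed intensities of the listed neutrophil genes were 129.6 to 897.5 in controls and 429.7, 6644 and 184.9 in knockouts 1 to 3. Most of the sum on knockout 2 came from Lcn2, which also stands in the acute phase list. Lcn2 was at 9.49, 6.80 and 4.06 in controls and at 8.29, 12.27 and 6.23 in knockouts, so the sum does not measure neutrophils alone. The part of neutrophils in the inflammatory values of knockout 2 was not tested.

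**Figure D4:**
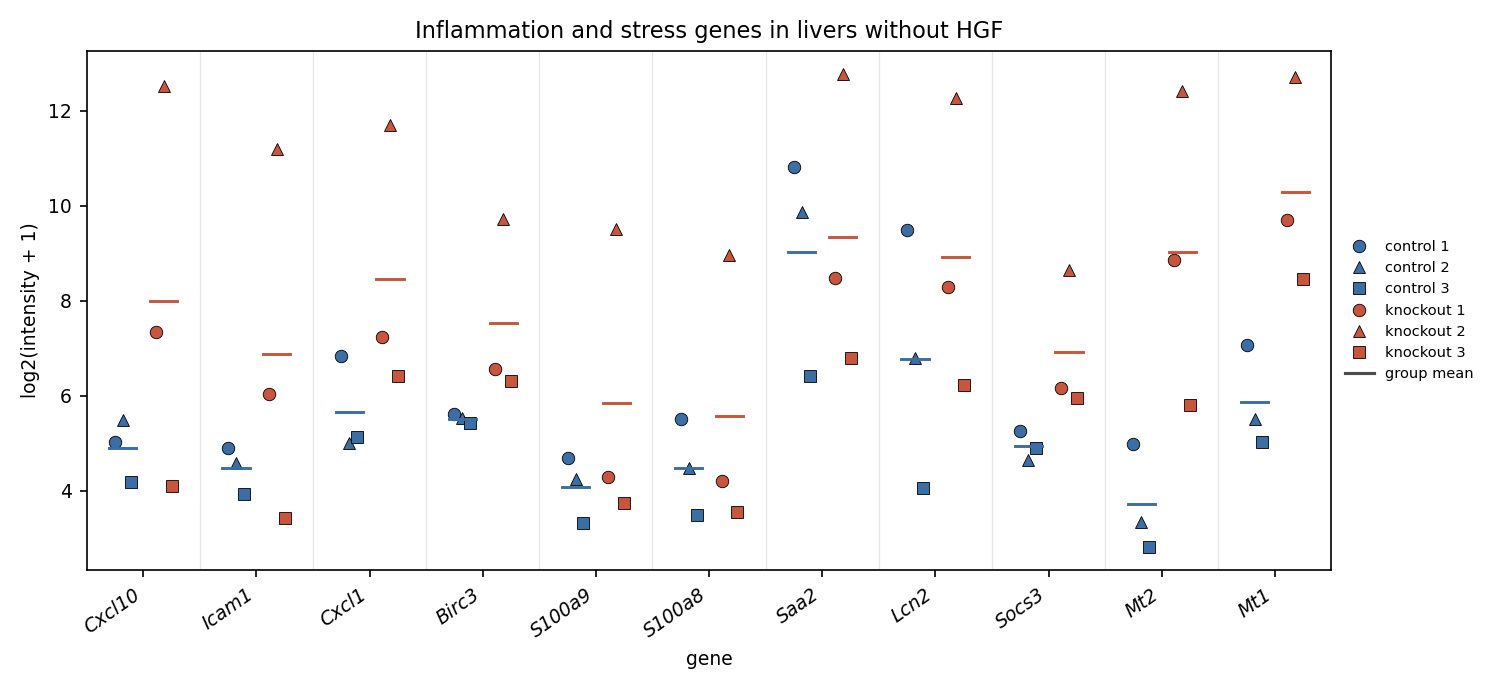
Inflammation and stress genes as log2(intensity + 1) on the y axis, with 1 symbol per liver (blue control, red knockout, marker shape for the replicate) and a bar for each group mean. Knockout 2 is the highest liver in all 11 genes, at 12.51 for Cxcl10 and 12.71 for Mt1. Most of the 11 were named for lying far above the other knockouts on knockout 2, so this order follows from the choice.

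Some stress-responsive genes were high in knockout 1 and 3 as well. Mt1, metallothionein, was at 7.06, 5.50 and 5.03 in controls and at 9.69, 12.71 and 8.46 in knockouts, all above the controls (3.21 without knockout 2, limma adjusted p = 0.0446; 4.42 with it, adjusted p = 0.244). Gadd45g, a growth arrest gene, was at 4.06, 4.50 and 4.37 against 6.46, 10.48 and 7.96 (2.90, adjusted p = 0.0192; 3.99 with knockout 2, adjusted p = 0.209). Of 14 tested immediate early genes, 5 rose without knockout 2 (Junb, Klf10, Gadd45g, Csrnp1 and Plk3), beside 2.99% of all tested probe sets, and 0 fell. Csrnp1, 1 of the 5, had all controls below the floor, and Plk3, Junb and Klf10 had at least 1 control below it. These genes passed the filter only with the knockout arrays and are no support for the list. Junb, an AP-1 subunit, was at 3.68, 4.01 and 4.39 against 5.00, 8.0 and 5.31 (1.12, adjusted p = 0.0437; 2.07 with knockout 2, adjusted p = 0.380). Of the 4 tested ERK feedback genes, Phlda1 rose without knockout 2, beside 2.99% of all tested probe sets. Phlda1 was at 8.54, 8.75 and 8.76 in controls and at 10.23, 10.89 and 9.64 in knockouts 1 to 3 (1.25, adjusted p = 0.0226; 1.57 with knockout 2, adjusted p = 0.169).

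The phosphatase gene Dusp6, an ERK-induced inhibitor of ERK, was at 7.75, 7.46 and 7.10 in controls and at 6.51, 5.59 and 7.05 in knockouts, all below the controls (-1.05, limma adjusted p = 0.371; -0.66 without knockout 2, adjusted p = 0.163). Socs3, the feedback inhibitor of STAT3 signalling, was at 5.27, 4.65 and 4.90 against 6.18, 8.64 and 5.96 (1.13 without knockout 2, adjusted p = 0.0293; 1.99 with it, adjusted p = 0.364). Birc3, an inhibitor of apoptosis and NF-kappaB target, was at 5.61, 5.53 and 5.43 against 6.56, 9.73 and 6.31 (0.92 without knockout 2, adjusted p = 0.0183; 2.01 with it, adjusted p = 0.436). Socs3 and Birc3 were thus higher in all knockouts.

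Knockout 2 was also the lowest liver for genes that lay within or above the control range in the other knockouts. The genes given here were named for that distance of knockout 2 from the other knockouts. Arrdc3, an arrestin-domain protein, was at 9.17, 9.79 and 9.66 in controls and at 10.03, 3.19 and 9.91 in knockouts. The lipolysis inhibitor gene G0s2 was at 8.29, 9.23 and 9.65 against 8.48, 3.71 and 8.66. Hhex, a hepatic transcription factor, was at 7.98, 7.99 and 8.18 against 8.52, 4.88 and 8.95. For Arrdc3 and G0s2 the differences over 6 arrays were -1.83 and -2.11 (limma adjusted p = 0.765 and 0.610), and for Hhex -0.60 (adjusted p = 0.875).

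**Figure D5:**
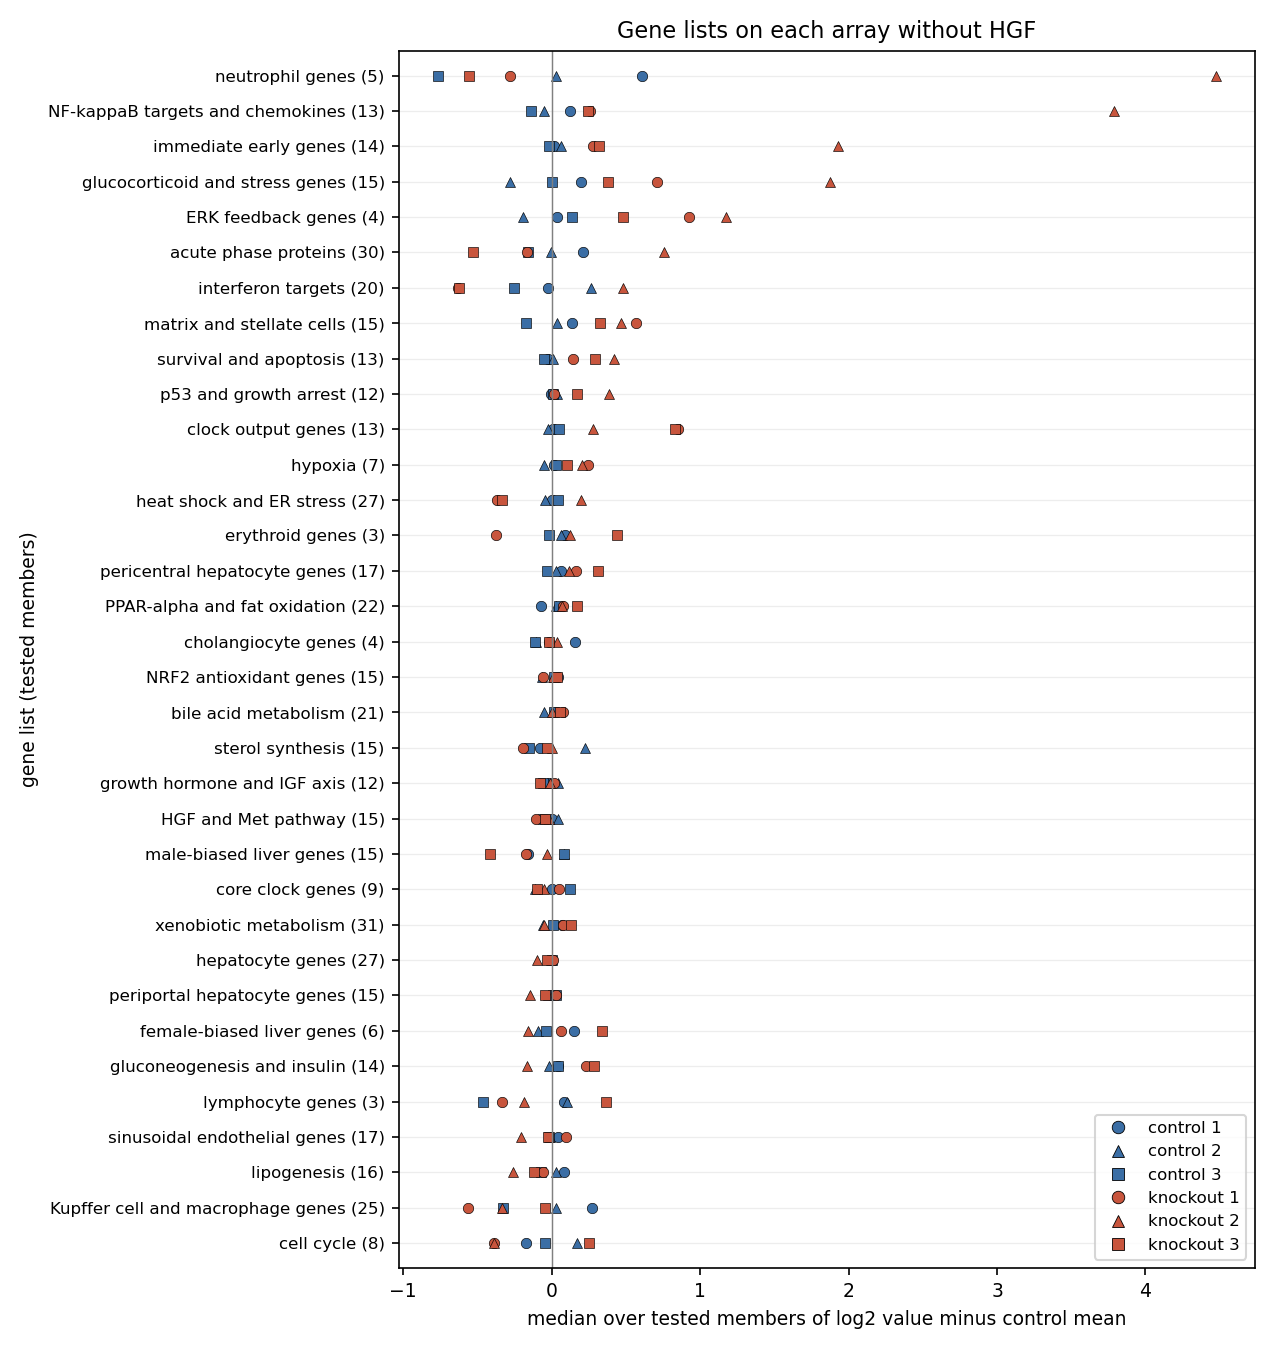
Median over the tested members of each gene list (number in brackets) of the log2 value minus the control mean (x axis), for each of the 6 livers, for the 34 lists with at least 3 tested members. Knockout 2 is far to the right for neutrophil genes, NF-kappaB targets and immediate early genes, and knockout 1 and 3 are to the right for clock outputs and to the left for interferon targets and heat shock and ER stress genes.

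Other cell types gave few differences. Of 17 tested sinusoidal endothelial genes, 0 were called in either fit, with a median of -0.056 over 6 arrays and 0.032 without knockout 2. Of 4 tested cholangiocyte genes 0 were called, and Krt7, Krt19, Epcam and Sox9 were below the filter. Of 8 tested cell cycle genes 0 were called, with a median of -0.25 over 6 arrays and -0.062 without knockout 2. Of 3 tested erythroid genes, Car1 rose without knockout 2, beside 2.99% of all tested probe sets. Alas2, the erythroid haem synthase, was at 8.90, 9.35 and 9.10 in controls and at 8.60, 8.85 and 8.79 in knockouts. Of 15 tested male-biased liver genes, Cyp4a12a and C8a fell without knockout 2, beside 2.88% of all tested probe sets. Of 6 tested female-biased genes 0 were called.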

How the data were processed

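The authors deposited 1 linear probe set intensity per array and probe set, made with GCRMA per the submitters' processing notes; no version is named where these were read, and the linear scale was read from the values. The method corrects background and brings arrays to a common distribution, so a shift shared by most genes would not show. Symbols came from the platform annotation, with 15780 of 16475 probe sets paired with 1 symbol and 695 with none; 64 array controls were left out.

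Values were transformed as log2(intensity + 1). Probe sets at a log2 value of at least 4 on at least 3 of the 6 arrays were tested (6356, of which 243 lack a symbol). limma 3.58.1 in R 4.3.3 fitted a mean for each group, with 4 residual degrees of freedom (3 without knockout 2), and eBayes moderation. Tests were two-sided, and calls used a Benjamini-Hochberg adjusted p under 0.05 over all tested probe sets. The median SE was 0.16 over 6 arrays; 3 arrays per group limit the precision. Labels give 3 animals per group, and p-values measure the spread between these samples. The fit was tested on simulated data.

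Named genes were Met, Hgf, the 12 largest called rises and falls in each fit, the genes with the widest gap between groups, those farthest from the other knockouts on knockout 2, up to 4 members of each list, and any member of the pathway, clock, acute phase, NF-kappaB and immediate early lists. Fewer than all of these are printed. Others (Calr, Hsp90b1, Canx, Derl3, Hspa5 and Clec4f among them) were added with their values in view. The members, the 37 gene lists and the rules were chosen with earlier results of these data known. Genes may stand in several lists. Alternatives varied the pseudocount, filter, normalization, arrays, replicate block, moderation and array weights.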

Additional observations from a re-analysis of the deposited data

How the results depend on the processing

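The 9 calls over 6 arrays (6 higher, 3 lower) became 4 (1 higher) with a pseudocount of 16, 2 (0 higher) with no filter, 5 (3 higher) with a floor of 6, 4 (2 higher, and 1 of the 9 among them) with all 12 arrays in the fit and 491 (216 higher, 275 lower) with array weights. Leaving out 1 array gave 0 to 373 calls, 0 to 190 higher and 0 to 183 lower. Same-numbered deviations from the group means correlated at -0.19, 0.07 and 0.27. Knockout 1 and 3 behaved alike, at 0.23 and 0.27 with control 3, and opposite to knockout 2, at -0.32. These correlations therefore cannot show whether the replicate numbers pair the arrays. With a replicate block limma called 0, 0 higher and 0 lower (644 at an unadjusted p under 0.05). Quantile normalization and a robust trended prior gave 8 each.

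The fit without knockout 2, combined with other settings chosen after seeing the data, changed from 373 (190 higher, 183 lower) to 11 (5 and 6) with all 12 arrays, 163 (80 and 83) with array weights and 73 (35 and 38) with a replicate block. Leaving out 1 further array gave 71 to 465, 34 to 215 higher and 37 to 250 lower. Its other settings gave 376 to 529.

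Genes without overlap numbered 940 above and 1576 below with no filter, and 512 to 1385 above and 993 to 1396 below with 1 array left out. Among named genes called without knockout 2, the differences of opposite sign over 6 arrays were Tcf21 (1.39), Cyp7a1 (1.17), Fas (-0.53) and Fpr2 (-0.77), all given without it; with 1 array left out they ranged from -0.76 to 1.39, -0.84 to 1.17, -0.53 to 0.69 and -0.77 to 1.61. Differences called in neither fit, such as that of Saa2, could change sign as well. The cause of these changes was not tested, apart from the number of genes or arrays in the setting. Probe sets near background are compressed, so their differences are uncertain.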
